A study of Arabidopsis thaliana with 6 samples.

Results

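The genes described here are 69 nuclear genes of Arabidopsis thaliana whose transcript was strongly lower in rosettes of an MLK1 MLK2 double mutant than in wild-type rosettes. They were chosen from the same arrays that are described. A member is a nuclear probe set that names 1 gene, has a wild-type mean log2 value of 6.5 or more and has a double mutant mean lower by at least 1.5, which is a 2.83-fold difference. Of 4825 nuclear probe sets that name 1 gene and reach that wild-type mean, 83 (1.72%) met the values, and 14 of these were left out by name, among them the targeted gene AT5G18190, cold-regulated and clock genes, wall proteins and serine carboxypeptidase-like genes. In all, 13217 nuclear genes are named by a probe set of their own in the tables used here, and only these are called measured below; 8730 probe sets have no name in the tables and may read further genes. Because the difference itself chose the members, the size of their change is a description and carries no test.

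The arrays compare 2 genotypes, with 3 Affymetrix arrays each. The double mutant is labelled -/- for AT3G03940 and AT5G18190, which encode the protein kinases MLK2 and MLK1, and its growth label calls the plants knockdowns; the second genotype is the wild-type accession Columbia-0. All plants were 21 days old, had 12 h of light and were well watered, and total RNA came from rosette leaves. The labels do not give the alleles or say whether an RNA sample came from 1 plant or a pool, so p-values measure only the spread between these samples, which may be technical. One digit is missing from the second locus in the labels, and it was read as AT5G18190. Expression values are on the log2 scale after robust multi-array averaging (RMA), so a difference of 1 is a doubling, and values of different probe sets are not levels that can be set against each other.

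Most members are known here only by locus. For 61 of the 69 the tables used give a locus number as the symbol, and 1 of these, AT1G59740, carries the name NPF4.3 among its synonyms. The 8 members with a symbol are CHL, PWD, SUFE2, ALN, CYP71B28, PRA1.F1, WAG2 and GH9B13. As background, starch in leaves is built by day and broken down at night, and its breakdown starts when glucan water dikinase and then phosphoglucan water dikinase, the product of PWD, add phosphate groups to the granule surface. Plants recycle the nitrogen of purine bases through urate and allantoin, and allantoinase, the product of ALN, opens the ring of allantoin to give allantoate. Auxin transport depends on where PIN carriers sit in the cell membrane, which WAG2 and related kinases influence by phosphorylating them.

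AT5G18190 served as the check of the labels. It read 3.42, 3.57 and 3.36 in the double mutant arrays, against 7.92, 7.74 and 7.63 in the wild-type arrays, a difference of -4.32 (limma SE 0.10, adjusted p = 2.1e-09). All 3 double mutant values lay below the lower quartile of their array, so the fold is a bound, at least 16.2-fold lower. No probe set names AT3G03940, and it was not analysed here. Pearson correlations across probe sets were 0.9967 to 0.9976 within the double mutant, 0.9932 to 0.9956 within the wild type and 0.9672 to 0.9695 between the genotypes. RCA, the activase of the leaf enzyme Rubisco, had means of 13.54 in the double mutant and 12.94 in the wild type, and AMS, a regulator of anther development and the only measured gene of the flower and pollen list, was below the lower quartile on all 6 arrays. Some controls moved with genotype: a control for 25S ribosomal RNA read 12.19, 12.08 and 12.32 in the double mutant and 5.45, 6.81 and 5.53 in the wild type, and for 3 of 6 control pairs the 5′ minus 3′ signal was higher in every double mutant array than in any wild-type array, by 0.67, 0.38 and 0.35. For 1 pair, a ubiquitin control, it was lower in every double mutant array, at -1.68 to -1.52 in the double mutant and -1.45 to -1.33 in the wild type. Their part in the values below was not tested. In a whole rosette, fewer cells of a type and less RNA per cell cannot be told apart.

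Across the 69 genes the difference ran from -3.30 to -1.51 on the log2 scale, that is from 9.84-fold to 2.84-fold lower, with a median of -1.84 and quartiles of -1.99 and -1.67. The median difference was -0.01 over all 22746 probe sets and -0.04 over nuclear probe sets with a wild-type mean of 6.5 or more. All 69 had every double mutant array below every wild-type array, as had 24.5% of all probe sets, and all 69 passed limma at an adjusted p of 0.05 as lower, as did 18.7% of all probe sets (19.8% passed as higher; with arrays centred on their medians, 4942 passed as lower and 3949 as higher, against 4255 and 4502 as reported) and 26.9% of nuclear probe sets with that wild-type mean; the choice of members fixes both counts. The gap between the lowest wild-type array and the highest double mutant array was 0.99 to 3.03, with a median of 1.61. No member had a double mutant value below the lower quartile of its array, which was 3.71 to 3.79, so none of these folds was treated as only a bound. That quartile is not a detection limit. Double mutant means went down to 4.51, and whether background made the folds of the lowest ones too small was not tested. Of the members, 7 differed by -3.30 to -2.58, 10 by -2.44 to -2.01 and 52 by -1.99 to -1.51.

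**Figure D1:**
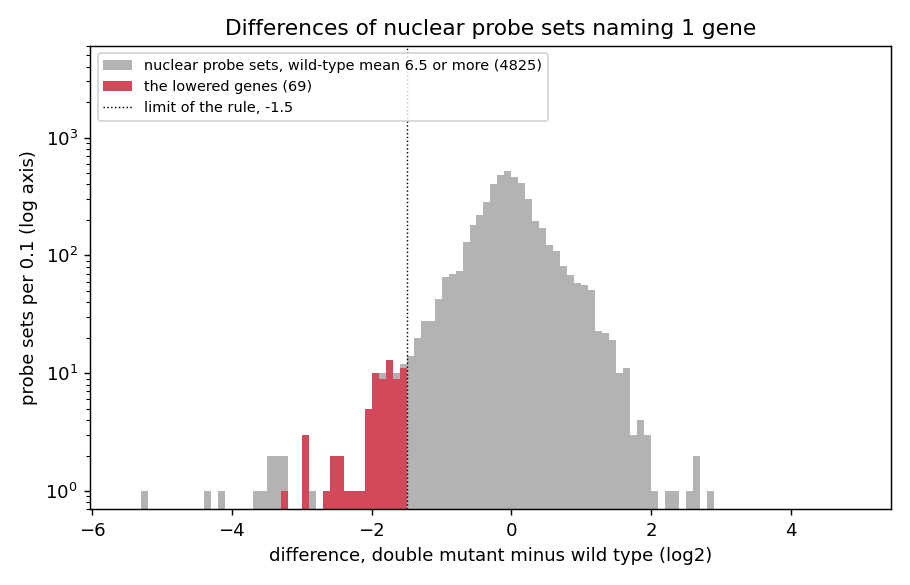
Histogram of the log2 difference, double mutant minus wild type, of 4825 nuclear probe sets that name 1 gene and have a wild-type mean of 6.5 or more (grey), in bins of 0.1 on a log count axis, with the 69 members in red and the limit of -1.5 dotted. The members fill most of the left tail from -3.30 to -1.51, and grey bars left of the limit are the 14 genes left out by name.

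The largest differences belonged to AT4G16146, AT2G39920 and AT5G20790. AT4G16146 read 5.15, 5.08 and 4.92 in the double mutant arrays, against 8.31, 8.18 and 8.54 in the wild-type arrays. AT2G39920 read 4.61, 4.54 and 4.62 in the double mutant arrays, against 7.53, 7.36 and 7.67 in the wild-type arrays. AT5G20790 read 4.995, 4.87 and 4.88 in the double mutant arrays, against 7.86, 7.82 and 7.85 in the wild-type arrays. These 3 genes were 9.84-fold, 7.64-fold and 7.6-fold lower, and for each the gap between the genotypes was many times the range within either one. Close behind came AT4G22490, at 8.71, 8.54 and 8.51 in the double mutant arrays, against 11.61, 11.51 and 11.36 in the wild-type arrays. AT5G62360 read 7.85, 7.89 and 8.05 in the double mutant arrays, against 10.61, 10.47 and 10.70 in the wild-type arrays. AT1G11210 was at 6.02, 5.93 and 5.63 in the double mutant arrays, against 8.41, 8.25 and 8.70 in the wild-type arrays. Their differences were -2.91, -2.66 and -2.59, and AT1G11210 varied most of the 3 within each genotype. AT5G55450, the last of these 7, read 7.23, 7.16 and 6.98 in the double mutant arrays, against 9.68, 9.65 and 9.77 in the wild-type arrays, or 5.97-fold lower.

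**Figure D2:**
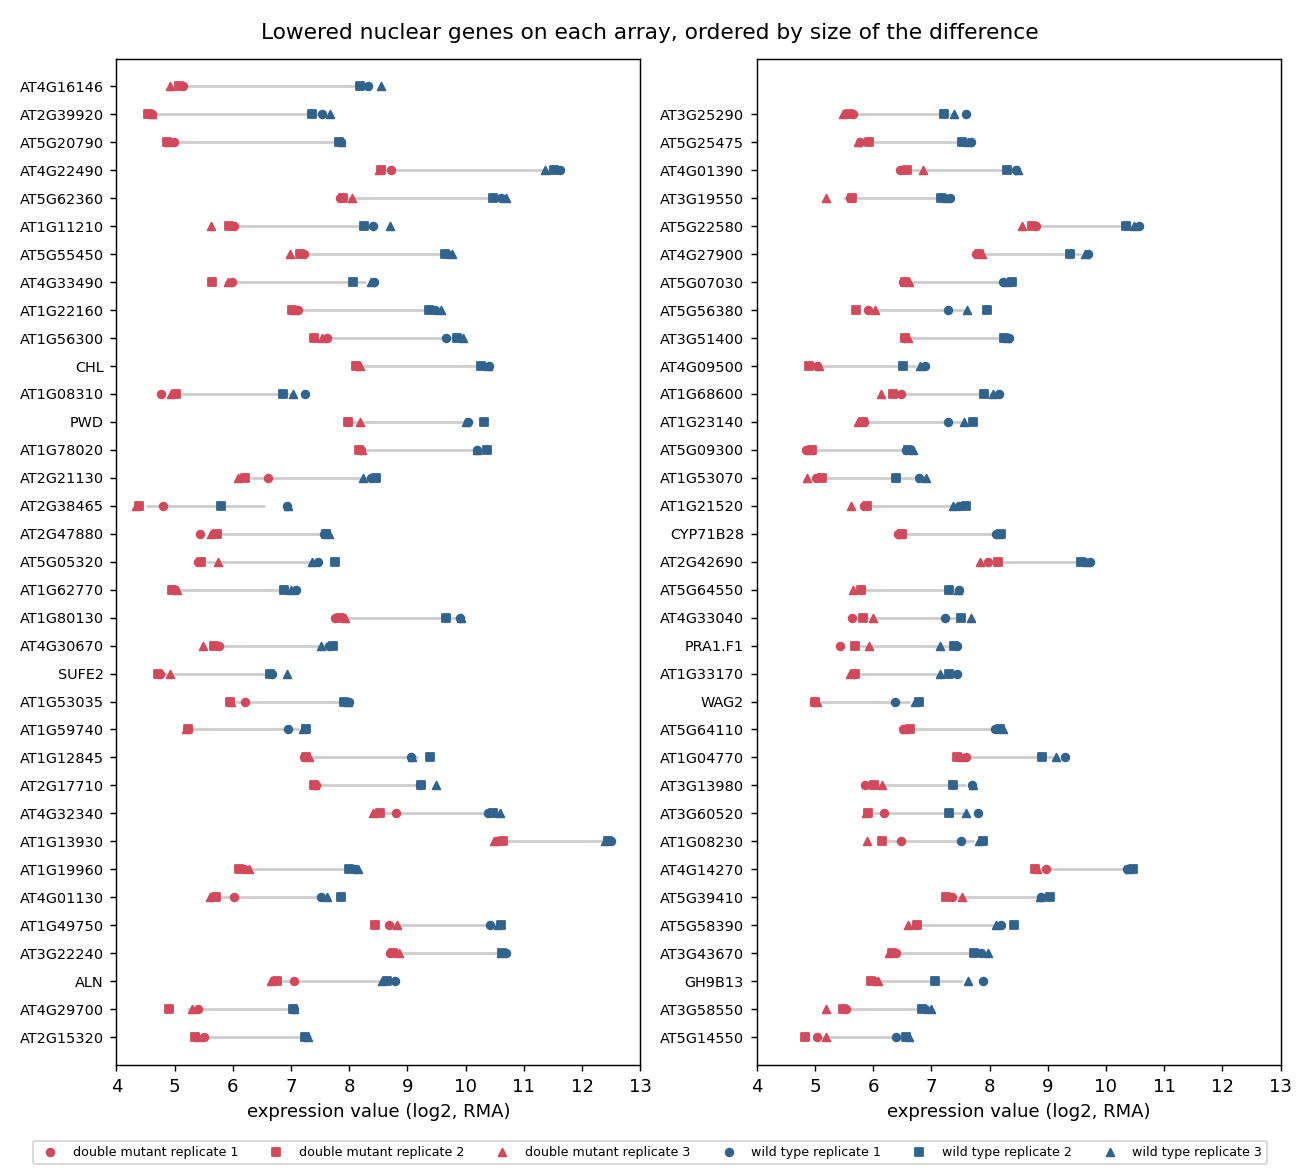
Log2 expression value of each of the 69 members on each array, ordered by size of difference from the top left to the bottom right, with double mutant arrays in red, wild-type arrays in blue, marker shapes for replicates and grey lines joining the group means. In every row the 3 red points lie left of the 3 blue points; the blue points of AT2G38465 and GH9B13 are the most spread, with replicate 2 low.

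The next 10 genes differed by -2.44 to -2.01. AT4G33490 read 5.99, 5.64 and 5.91 in the double mutant arrays, against 8.42, 8.06 and 8.38 in the wild-type arrays. AT1G22160 read 7.12, 7.02 and 7.05 in the double mutant arrays, against 9.47, 9.37 and 9.58 in the wild-type arrays. AT1G56300 was at 7.62, 7.39 and 7.54 in the double mutant arrays, against 9.66, 9.85 and 9.96 in the wild-type arrays. These 3 were 5.42-fold, 5.33-fold and 4.96-fold lower, with tighter double mutant values in AT1G22160 than in the other 2. AT1G08310 read 4.76, 5.01 and 4.94 in the double mutant arrays, against 7.25, 6.86 and 7.03 in the wild-type arrays. AT1G78020 had values of 8.21, 8.16 and 8.21 in the double mutant arrays, against 10.19, 10.36 and 10.19 in the wild-type arrays. AT2G21130 stood at 6.60, 6.20 and 6.09 in the double mutant arrays, against 8.37, 8.46 and 8.23 in the wild-type arrays. In AT2G21130 the first double mutant array was the highest of its group, and still 1.63 below the lowest wild-type array. AT2G47880 read 5.43, 5.72 and 5.63 in the double mutant arrays, against 7.57, 7.59 and 7.65 in the wild-type arrays. AT2G38465 was at 4.80, 4.38 and 4.34 in the double mutant arrays, against 6.92, 5.79 and 6.94 in the wild-type arrays. The second wild-type array of AT2G38465 was over 1 lower than the other wild-type arrays, which gave this gene the largest wild-type SD of all members (0.66, n = 3). Without that array its difference was -2.42 rather than -2.04, and without the first or the third it was -1.85 each time. Without double mutant array 1, 2 or 3 it was -2.19, -1.98 and -1.96. The remaining 2 of these 10 genes, CHL and PWD, are described with the named genes. Just under a difference of 2 lay AT5G05320, AT1G62770 and AT1G80130. AT5G05320 read 5.40, 5.46 and 5.74 in the double mutant arrays, against 7.46, 7.76 and 7.36 in the wild-type arrays. AT1G62770 read 5.002, 4.96 and 5.03 in the double mutant arrays, against 7.09, 6.88 and 7.001 in the wild-type arrays. AT1G80130 read 7.75, 7.84 and 7.93 in the double mutant arrays, against 9.90, 9.67 and 9.92 in the wild-type arrays. All 3 were close to 4-fold lower, at 3.98-fold, 3.97-fold and 3.97-fold.

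A pair of enzymes of glucan phosphorylation carry the symbol PWD in the tables, and both were lower in the double mutant. The member, AT5G26570, phosphoglucan water dikinase, read 7.98, 7.98 and 8.19 in the double mutant arrays, against 10.04, 10.31 and 10.01 in the wild-type arrays. Its mean was 8.05 ± 0.12 in the double mutant and 10.12 ± 0.17 in the wild type (SD, n = 3 each), or 4.2-fold lower. The second, AT4G24450, which the tables also name GWD3 and ATGWD2, lay short of the limit and read 6.49, 6.80 and 6.65 in the double mutant arrays, against 7.88, 8.09 and 8.12 in the wild-type arrays. It was no member, and limma called it lower, with a difference of -1.38 (SE 0.11, adjusted p = 2.7e-06). All double mutant arrays lay below all wild-type arrays for both genes. AT4G24450 is not the glucan water dikinase that starts starch breakdown in leaves. Only these 2 genes were found under the family name, so that first step was not read here.

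Genes of the sugar and starch list moved in both directions, and most of those measured were SWEET sugar transporters. Of 50 symbols on the list 11 were measured, none of them a member; 6 fell, 4 rose and 1 did not pass limma at an adjusted p of 0.05, with a median difference of -0.39. Over all 13217 nuclear genes, 17.1% were called lower and 2327 genes higher. DPE1, a plastid enzyme that acts on maltotriose in starch breakdown, fell by 0.92 (SE 0.09, limma adjusted p = 1.6e-05). APL3, a subunit of the enzyme that supplies ADP-glucose for starch synthesis, fell by 0.68 (SE 0.09, limma adjusted p = 0.00016). The sucrose exporters SWEET11 and SWEET13 fell by 1.02 and 1.74, while the sugar transporter SWEET2 rose by 2.76 and SWEET15, also known as SAG29, by 1.48. QQS, a gene linked to starch content that meets the value limits and was left out by name, had means of 3.65 in the double mutant and 6.97 in the wild type. Its double mutant values lay below the lower quartile on all 3 arrays, so it was at least 9.31-fold lower. SWEET16 rose by 0.33, a call that was lost in 4 of 6 fits without 1 array (adjusted p up to 0.14). The list was written with earlier results of these data known.

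ALN, allantoinase, read 7.04, 6.75 and 6.66 in the double mutant arrays, against 8.79, 8.64 and 8.56 in the wild-type arrays. Its mean was 6.82 ± 0.20 in the double mutant and 8.67 ± 0.12 in the wild type (SD, n = 3 each), or 3.59-fold lower. AAH, allantoate amidohydrolase, which acts on the product of allantoinase, moved the opposite way: it read 8.31, 8.12 and 8.28 in the double mutant arrays, against 7.17, 6.98 and 7.01 in the wild-type arrays, a rise of 1.18 (limma SE 0.10, adjusted p = 3.7e-06). UGLYAH, ureidoglycine aminohydrolase, the enzyme of the step after that, averaged 3.82 ± 0.06 in the double mutant and 3.98 ± 0.37 in the wild type (SD, n = 3 each), a difference of -0.16 (limma adjusted p = 0.47). UGLYAH lay below the lower quartile on 1 array of each genotype, so little can be read from it. So of the 3 named genes of allantoin breakdown, 1 is a member, 1 rose and 1 did not pass.

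CHL encodes the chloroplastic lipocalin, a small lipid-binding protein of the thylakoid lumen known for protecting photosynthetic membranes under stress. It read 8.13, 8.12 and 8.18 in the double mutant arrays, against 10.40, 10.27 and 10.38 in the wild-type arrays, or 4.62-fold lower, with an SD of 0.03 in the double mutant and 0.07 in the wild type (n = 3 each). TIL, the temperature-induced lipocalin and the only other lipocalin named on the array, read 10.07, 10.07 and 10.19 in the double mutant arrays, against 10.46, 10.49 and 10.24 in the wild-type arrays. Its difference of -0.29 (SE 0.10) passed limma with an adjusted p of 0.038, and the call was lost in 5 of the 6 fits that left out 1 array, with adjusted p up to 0.12. SUFE2 is a member of the sulfur E family, whose proteins activate the cysteine desulfurases that supply sulfur to iron-sulfur clusters. It read 4.75, 4.72 and 4.92 in the double mutant arrays, against 6.68, 6.64 and 6.92 in the wild-type arrays, or 3.86-fold lower; no second gene of that name is named by a probe set.

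WAG2, the PIN-phosphorylating kinase, read 4.98, 5.01 and 5.03 in the double mutant arrays, against 6.38, 6.79 and 6.72 in the wild-type arrays. Its mean was 5.01 ± 0.03 in the double mutant and 6.63 ± 0.22 in the wild type (SD, n = 3 each), a difference of -1.62. The double mutant values were within 0.06 of each other and the first wild-type array was the lowest of its group. PID2, the related PINOID2 kinase, read 3.396, 3.35 and 3.31 in the double mutant arrays, against 3.21, 3.33 and 3.37 in the wild-type arrays, below the lower quartile on all 6 arrays, so no difference in it could be read (limma adjusted p = 0.73).

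CYP71B28, a cytochrome P450, read 6.43, 6.496 and 6.49 in the double mutant arrays, against 8.11, 8.19 and 8.17 in the wild-type arrays. It was 3.21-fold lower, with an SD of 0.04 in each genotype (n = 3 each). Of the 18 other measured genes of the CYP71B subfamily, 7 fell, 2 rose and 9 did not pass limma, with a median difference of -0.16 and a range from -1.24 to 1.41; 7 of the 9 that did not pass lay below the lower quartile on all 6 arrays, so a change in them could not be read. CYP71B5 read 6.52, 6.38 and 6.21 in the double mutant arrays, against 7.66, 7.75 and 7.42 in the wild-type arrays, a difference of -1.24 (limma SE 0.12). CYP71B29, the next gene after CYP71B28 on chromosome 1, fell by 0.78 (SE 0.12). CYP71B36 had the largest rise of the subfamily, at 5.76, 5.72 and 5.61 in the double mutant arrays, against 3.99, 4.27 and 4.59 in the wild-type arrays. The calls of CYP71B35, which is lower by 0.30, and of CYP71B23, which is higher by 0.54, were lost in 5 and 4 of the 6 fits without 1 array, with adjusted p up to 0.12 and 0.15. Members of this subfamily are alike in sequence, and whether a probe set also reads a relative was not tested.

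NPF4.3 (AT1G59740) belongs to the NRT1/PTR family of nitrate, peptide and hormone transporters. It read 5.22, 5.23 and 5.19 in the double mutant arrays, against 6.95, 7.25 and 7.20 in the wild-type arrays, or 3.78-fold lower. Of 10 other genes with an NPF name, 3 fell, 2 rose and 5 did not pass, with a median difference of 0.00. Of the 10, 2 lay below the lower quartile on all 6 arrays, and little can be read from them. AT1G33440, called lower, is among these 2. AT2G26690 fell by 0.59 (SE 0.09), AT3G21670 rose by 0.89 (SE 0.12), and the glucosinolate transporter GTR1 fell by 0.38 (SE 0.10), a call lost without the first double mutant array (adjusted p = 0.055).

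PRA1.F1, a prenylated Rab acceptor of the secretory membrane system, read 5.43, 5.69 and 5.93 in the double mutant arrays, against 7.44, 7.39 and 7.15 in the wild-type arrays. The 3 double mutant arrays spanned 0.50 and the 3 wild-type arrays 0.29, and the difference was -1.65. Of 10 other measured genes of the PRA1 family, 2 fell, none rose and 8 did not pass limma. PRA1.G2 fell by 0.50 (SE 0.11) and PRA1.B6 by 0.44 (SE 0.10). GH9B13, of glycosyl hydrolase family 9, which holds the endoglucanases that act on cellulose and related wall glucans, read 6.02, 5.96 and 6.08 in the double mutant arrays, against 7.89, 7.06 and 7.63 in the wild-type arrays. Its second wild-type array was the lowest of the group, and its difference of -1.51 became -1.74 without that array. Without the first or the third wild-type array it was -1.33 and -1.46, short of the limit of -1.5. Without double mutant array 1, 2 or 3 it was -1.51, -1.48 and -1.54, so its membership depended on single arrays. Of 14 other genes of family 9, 2 fell, 2 rose and 10 did not pass, with differences from -0.40 to 0.43; 6 of the 14, among them GH9C1 and GH9B5, lay below the lower quartile on all 6 arrays, and little can be read from them. The largest fall among the other genes was 0.50 in the PRA1 family and 0.40 in family 9. Of the 4 calls in family 9, the 2 of GH9C1 and GH9B12 were lost in some fits without 1 array, with adjusted p up to 0.13 and 0.077.

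**Figure D3:**
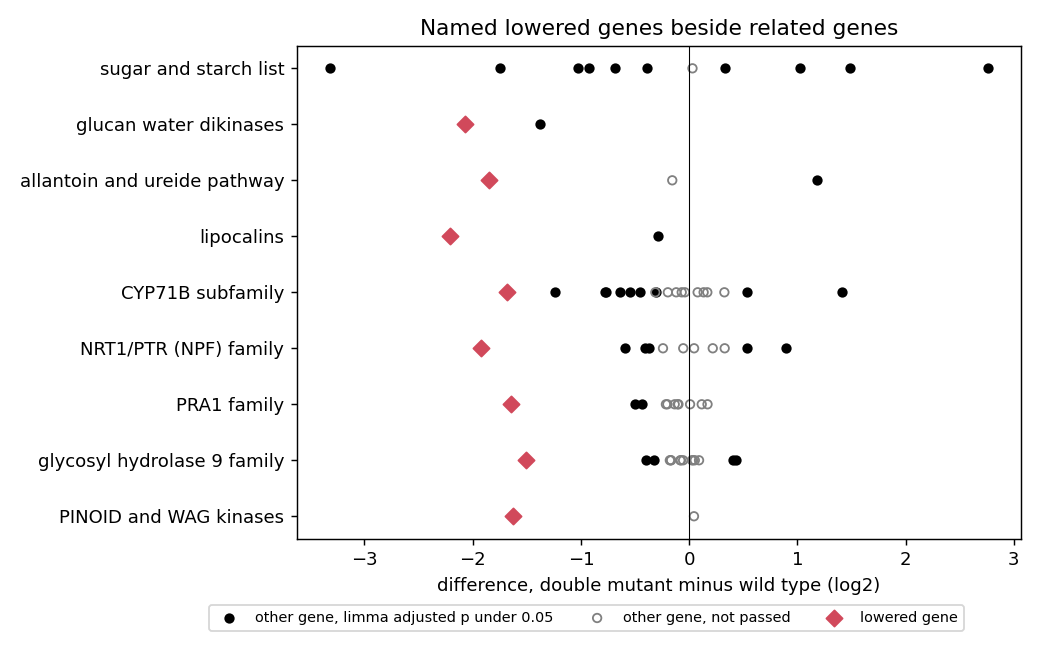
Log2 difference, double mutant minus wild type, of the members with a family name (red diamonds) and of the other measured genes of the same family or pathway, filled black where limma's adjusted p is under 0.05 and open where it is not; the top row is the sugar and starch list, which holds no member. The second glucan dikinase at -1.38 and CYP71B5 at -1.24 lie nearest to the limit of -1.5 among the related genes in rows with a member.

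The rest of the members have only a locus number, apart from GH9B13 and the others named above, and lie between -1.98 and -1.51. Those nearest to AT1G80130 were AT4G30670, AT1G53035, AT1G12845, AT2G17710 and AT4G32340. AT2G17710 read 7.43, 7.39 and 7.41 in the double mutant arrays, against 9.22, 9.23 and 9.48 in the wild-type arrays, among the tightest values of all members in the double mutant. AT1G12845 read 7.23, 7.26 and 7.31 in the double mutant arrays, against 9.06, 9.39 and 9.08 in the wild-type arrays. The next in order, down to a difference of -1.83, were AT1G13930, AT1G19960, AT4G01130, AT1G49750, AT3G22240, AT4G29700, AT2G15320 and AT3G25290. AT1G13930 read 10.53, 10.64 and 10.48 in the double mutant arrays, against 12.49, 12.45 and 12.40 in the wild-type arrays. AT3G22240 read 8.70, 8.75 and 8.85 in the double mutant arrays, against 10.69, 10.63 and 10.61 in the wild-type arrays. Both had an SD of at most 0.08 in either genotype (n = 3 each).

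Then came 13 genes, from -1.797 for the first to -1.704 for the last, AT5G25475, AT4G01390, AT3G19550, AT5G22580, AT4G27900, AT5G07030, AT5G56380, AT3G51400, AT4G09500, AT1G68600, AT1G23140, AT5G09300 and AT1G53070. AT3G51400 read 6.54, 6.55 and 6.60 in the double mutant arrays, against 8.33, 8.25 and 8.30 in the wild-type arrays, and both groups were within 0.08. AT5G56380 read 5.92, 5.70 and 6.04 in the double mutant arrays, against 7.28, 7.96 and 7.61 in the wild-type arrays, with the third largest wild-type SD among members (0.34, n = 3). From -1.69 to -1.61 followed AT1G21520, AT2G42690, AT5G64550, AT4G33040, AT1G33170 and AT5G64110, beside the named CYP71B28, PRA1.F1 and WAG2. AT2G42690 read 7.97, 8.14 and 7.83 in the double mutant arrays, against 9.73, 9.57 and 9.66 in the wild-type arrays. The last 11 genes, from -1.59 to -1.51, were AT1G04770, AT3G13980, AT3G60520, AT1G08230, AT4G14270, AT5G39410, AT5G58390, AT3G43670, GH9B13, AT3G58550 and AT5G14550. AT1G08230 read 6.47, 6.15 and 5.90 in the double mutant arrays, against 7.51, 7.89 and 7.82 in the wild-type arrays, with the largest double mutant SD of all members (0.29, n = 3). AT4G14270 read 8.97, 8.79 and 8.81 in the double mutant arrays, against 10.37, 10.46 and 10.39 in the wild-type arrays.

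Genes just inside and just outside the limits differed little. AT5G14550, the last member by difference and by wild-type mean, read 5.04, 4.82 and 5.19 in the double mutant arrays, against 6.40, 6.56 and 6.62 in the wild-type arrays. AT3G58550 had a difference of -1.51 and GH9B13 one of -1.51. Just outside the limit on the difference, ATG8D, of the autophagy ATG8 family, read 7.14, 6.94 and 6.74 in the double mutant arrays, against 8.43, 8.42 and 8.47 in the wild-type arrays, a difference of -1.498. AT3G61820 and AT3G13510 followed with -1.498 and -1.49. Just outside the limit on the wild-type mean were AT5G06610, AT5G62080 and AT2G04460, with wild-type means of 6.42, 6.39 and 6.39. AT5G62080 read 3.18, 3.87 and 3.51 in the double mutant arrays, against 5.83, 6.49 and 6.86 in the wild-type arrays, and 2 of its 3 double mutant values lay below the lower quartile of their array, so the size of its difference is uncertain. In all, 30 nuclear probe sets that name 1 gene were lower by 1.5 or more from a wild-type mean under 6.5.

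The members were chosen on the group means of these same arrays, so their low values on each double mutant array follow largely from the choice. The values per array are given as a description. Against the wild-type mean, their median was -1.76, -1.88 and -1.86 in double mutant replicates 1, 2 and 3, and 63, 67 and 63 of the 69 were lower by at least 1.5 on the single array. The same medians over all probe sets were -0.03, 0.00 and 0.01. Each wild-type array against the mean of the other wild-type arrays gave a median of 0.02, -0.04 and 0.04 over the members, and no member was lower by 1.5 in any of them. The SD between the 3 arrays had a median over members of 0.11 in the double mutant and 0.12 in the wild type, against 0.08 and 0.12 over nuclear probe sets with a wild-type mean of 6.5 or more. Wild-type replicate 2 was the lowest wild-type array for 36 of the 69 members, while replicates 1 and 3 were the lowest for 20 and 13.

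**Figure D4:**
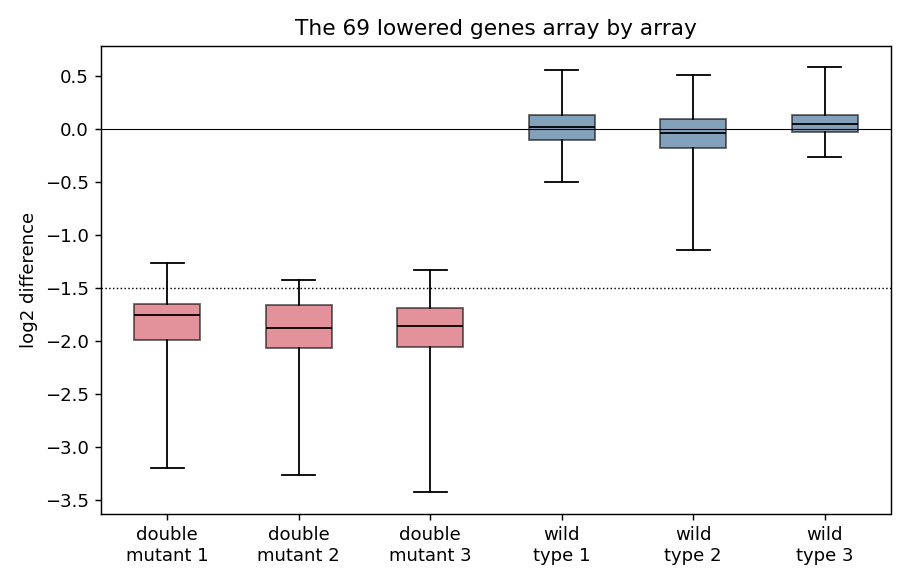
Box plots over the 69 members of the log2 difference of each double mutant array from the wild-type mean (red) and of each wild-type array from the mean of the other wild-type arrays (blue); boxes show quartiles, lines medians and whiskers the full range, with the limit of -1.5 dotted. The red medians lie at -1.76 to -1.88 and the blue medians within 0.05 of 0. The members were chosen on the group means of these same arrays.

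Position in the genome was not used in the choice, apart from the restriction to nuclear genes. Chromosome 1 held 23 members (33.3%, against 25.9% of nuclear probe sets with a wild-type mean of 6.5 or more), chromosome 2 held 7 (10.1% against 14.7%), chromosome 3 held 10 (14.5% against 20.6%), chromosome 4 held 14 (20.3% against 14.8%) and chromosome 5 held 15 (21.7% against 24.0%). None of the 15 on chromosome 5 lay between AT5G40450 and AT5G55000, an interval found earlier in these same data as one in which expressed genes were higher in the double mutant; it holds 294 of the 1159 such probe sets of that chromosome. The median difference of those 294 was 0.80, against -0.09 on the rest of chromosome 5. Because higher values in these data defined the interval, this median and the absence of members in it follow largely from that choice. Of the genes left out by name, 1 in the interval met the limits. The lowest other gene in it with a wild-type mean of 6.5 or more, AT5G53420, read 8.08, 8.14 and 8.08 in the double mutant arrays, against 9.47, 9.32 and 9.41 in the wild-type arrays, a difference of -1.30. AT5G39410 and AT5G55450, both members, lie outside it on either side.

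Members were scattered in gene order. No member was the immediate neighbour of another, and the closest were AT1G53035 and AT1G53070, 4 genes apart, and AT1G08230 and AT1G08310, 7 genes apart. Of the genes directly beside a member, 68 were measured; 22 of them (32.4%) fell and 8 (11.8%) rose at a limma adjusted p of 0.05, against 2263 (17.1%) and 2327 of all 13217 nuclear genes. Of the 68, 10 lay below the lower quartile on all 6 arrays and none of these passed. Their median difference was -0.10, against -0.01 for all nuclear genes. Among genes with a mean over the 6 arrays of 6.5 or more, 9 of 24 neighbours (37.5%) fell and 5 (20.8%) rose, against 23.8% and 24.9% of 4796 genes. Whether the shares of neighbours differ from those of all genes was not tested, and none of the 68 neighbours lies in the interval of chromosome 5. Where 2 neighbouring transcripts overlap, a probe set may read both, which was not tested either. Nor was it tested whether any neighbours are alike in sequence, so that a probe set for one also reads the other.

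Some neighbours moved with the member and others against it. AT5G62350, beside AT5G62360, fell by 1.17 (SE 0.09, limma adjusted p = 2.3e-06), and AT4G33480, beside AT4G33490, fell by 0.98 (SE 0.11). AT3G25400, beside AT3G25290, fell by 1.01 (SE 0.10). AT4G30670 lies 3 genes after AT4G30650, which met the limits and was left out by name, and AT4G30660 between them fell by 1.22 (SE 0.11). By contrast, AT5G64110 read 6.52, 6.63 and 6.54 in the double mutant arrays, against 8.10, 8.19 and 8.24 in the wild-type arrays, a difference of -1.61, while the genes on both sides of it rose. AT5G64100 rose by 1.71 (SE 0.10, limma adjusted p = 4.2e-07) and AT5G64120 by 2.32 (SE 0.12, limma adjusted p = 1.3e-07). AT4G22490, lower by 2.91, lies 3 genes from AT4G22470, which rose by 3.99 (SE 0.14), and GH9B13 lies 4 genes from ATPMEPCRB, a pectin methylesterase gene that rose by 4.21 (SE 0.13). In these 3 places a strongly lowered transcript and strongly raised ones stood within a few genes of each other. All neighbours named here were chosen after their values were seen, and they include the lowest and the highest of the 68.

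**Figure D5:**
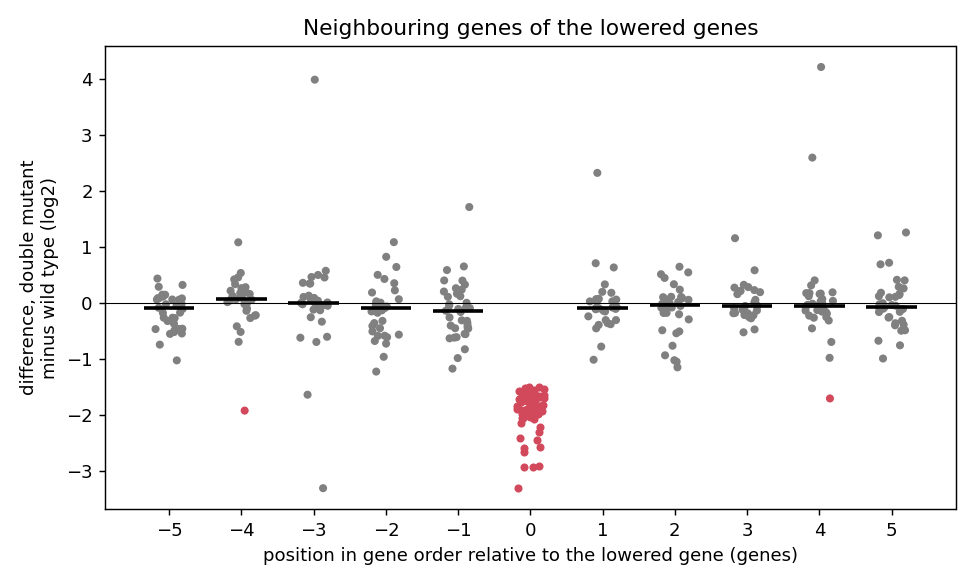
Log2 difference, double mutant minus wild type, of the measured genes up to 5 places before or after each member in gene order (grey), with the members in red at 0 and, where one is a neighbour of another, at its place; black bars are medians. The medians of the neighbours lie between -0.14 and 0.07, and the 4 highest points, at 2.32, 2.60, 3.99 and 4.21, belong to AT5G64120, AT2G17740, AT4G22470 and ATPMEPCRB.

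No member was found on any of 31 lists of genes for clock, light, cold, cuticle, wall, hormone, defence, nutrient, lipid, water channel, heat, cell cycle and tissue marker functions. Little could be found this way. The lists are made of gene symbols, and 61 of the 69 members have only a locus number as symbol. A gene with only a locus number could still be matched through a synonym. Of 910 symbols in all, 848 were matched to a locus, but 6 lists have no measured gene and only 101 genes were measured. Of these, 30 fell, 32 rose and 39 did not pass limma, with a median difference of -0.02. Genes left out of the members by name are on these lists, among them COR15B, COR27, GI and QQS, so the absence of members was largely fixed beforehand and nothing is read from it. Markers of other tissues and cell types differed in both directions. Of 3 root genes measured, PYK10 rose by 0.52 and EXPA7 and EXPA18, the root hair expansins, did not pass. Of 4 genes on the guard cell list, EPFL9, a signal that promotes stomata, fell by 0.92. Of the 3 genes of the stomatal lineage itself, SPCH, which starts it, rose by 0.53, and FAMA and MUTE did not pass. Of 2 trichome genes, SIM fell by 0.50 and TRY did not pass, and of 2 meristem and young leaf genes, YAB3 fell by 0.36 and CLV3 lay below the lower quartile on all 6 arrays. The summed log2 level was 8.55 to 8.76 in the double mutant and 8.93 to 9.12 in the wild type for the guard cell list, and 11.81 to 11.87 in the double mutant and 11.17 to 11.44 in the wild type for the root list. For the trichome list it was 6.87 to 7.03 in the double mutant and 7.32 to 7.54 in the wild type, and for the meristem and young leaf list 7.29 to 7.45 in the double mutant and 7.59 to 7.87 in the wild type. Such a sum is set mostly by the brightest genes of a list and does not show that the list moved. The root sum is close to PYK10 alone, with means of 11.82 in the double mutant and 11.31 in the wild type. The meristem and young leaf sum is close to YAB3 alone, with means of 7.27 in the double mutant and 7.63 in the wild type. Of 3 senescence genes, SAG29 rose by 1.48, WRKY6 rose by 0.35 and WRKY53 did not pass, and their summed level was 7.93 to 8.11 in the double mutant and 7.34 to 7.41 in the wild type. No gene of the seed list or of the phloem and xylem list is named by a probe set in the tables used, so these could not be examined. The part of these markers in the lower values of the members was not tested.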

How the data were processed

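Per the submitters' processing notes, R 2.9.0 was used, with RMA for the values and limma. The deposited values are log2 expression per probe set. The authors' deposited table gives log2 differences with p-values and a moderated statistic and log odds score; its differences and the differences of group means were equal to within 6.7e-09, and it entered no test. Left out were 64 controls. Of the other 22746 probe sets, 13513 name 1 gene, 503 several and 8730 none; names and gene order came from RefSeq (TAIR10.1), which matched 13436.

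The genotypes were compared with limma 3.58.1 in R 4.3.3 (one term, two-sided, Benjamini-Hochberg over 22746, threshold 0.05); every SE and adjusted p is from this fit. Genes other than members were read from their brightest probe set. The tests were checked on simulated data. Python 3.11.15 made tables and plots. No scan date or other batch was used; the number of arrays limits precision.

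Members and lists were chosen with earlier results of these data known; families, neighbours and the interval were defined after the members were known. The 20 members with the largest difference are given array by array, then those with a name and those nearest the limits. Other members given array by array, and the related genes and neighbours named, were chosen after their values were seen. Promoter and protein sequences were not used here.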

Additional observations from a re-analysis of the deposited data

Results flagged for a closer look

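One signal lay outside the measured genes. A control for 25S ribosomal RNA differed by 6.26 on the log2 scale, with 12.20 ± 0.12 in the double mutant and 5.93 ± 0.76 in the wild type (SD, n = 3 each). It was singled out because a probe set that enters no gene comparison separated the genotypes. Its part in the lower values of the 69 genes was not tested. With 3 arrays per genotype, no group was large enough to look for single outlying arrays.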

How the results depend on the processing

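The number of members followed the limits: 118 genes met the rule with a limit of 2.38-fold and 17 with 4-fold in place of 2.83-fold. With a wild-type mean of 6.0 or 7.0 there were 82 and 60, with arrays centred on their medians 74 and with group medians 71, of which 67 were shared. Leaving out 1 array gave 66 to 73, of which 64 to 69 were shared. Centring moved the difference of every member by -0.05, and the calls over all probe sets to 4942 lower and 3949 higher. With a low-signal filter, which tests fewer genes, 14 neighbours were called lower and 41 list genes were called. Without 1 array the calls over all probe sets were 3334 to 4298 lower and 3651 to 4536 higher, those of neighbours 18 to 22 lower and 7 to 10 higher, and those of list genes 56 to 61. Of 70 named non-member genes that were called, 13 lost the call in at least 1 setting and none changed direction. Same-numbered arrays did not deviate together (correlations of -0.08, -0.10 and -0.16), and the main fit used no pairing. With 3 arrays per genotype, these correlations cannot exclude that same-numbered samples were handled together. With the replicate block 3894 probe sets were lower and 4201 higher, with 23 and 8 neighbours and 61 list genes.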

Other observations

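The same limits on the values were met by 83 further probe sets that name no gene in the tables used here, by 4 that name several genes and by 2 plastid genes. Turned round, with a double mutant mean of 6.5 or more and a rise of at least 1.5, the limits were met by 113 nuclear probe sets that name 1 gene, against 83 in the falling direction.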
